A study of Mus musculus with 36 samples.

Results

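The untreated primary hepatocytes of this series were 3 of its 36 RNA-seq libraries and were compared with the 9 other control libraries, 3 each of adipocytes, macrophages and myotubes. These 12 libraries were chosen by their labels alone, as the cells that received the PBS vehicle for 6 h, and no measured value entered the choice. The study exposed the 4 kinds of mouse cells to butyrate, to β-hydroxybutyrate or to vehicle, and the comparison of the vehicle controls asks which genes and programmes set the hepatocytes apart. All cells were labelled C57Bl/6, and the labels name no engineered allele. The hepatocytes came from livers of male C57BL/6NHsd mice perfused with collagenase, were plated on collagen with serum and dexamethasone, left overnight without dexamethasone and kept in Williams E medium. The adipocytes were stromal vascular cells of inguinal fat pooled from several male mice and differentiated with a cocktail of insulin, dexamethasone, isobutylmethylxanthine and rosiglitazone. The macrophages were bone marrow cells of male mice matured in L929-conditioned medium. The myotubes were hindlimb myoblasts, also of male mice, fused in differentiation medium. Cell type therefore cannot be told apart from medium, isolation, substrain and age in culture. The labels do not say that the 3 libraries of a cell type came from separate animals, so the p-values measure only the spread between these libraries.

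Hepatocytes are the parenchymal cells of the liver. They make most proteins of the blood plasma, handle nitrogen from amino acids through the urea cycle, release glucose and ketone bodies during fasting, make bile acids, and oxidise and conjugate drugs and steroids. Their identity is kept by a small network of transcription factors, among them HNF4A, the FOXA proteins and C/EBP factors, which bind promoters and enhancers of the same liver genes. Isolated hepatocytes in a dish are known to lose part of this expression with time.

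Some promoters of the genes described here are shown first because they carry, in a few bases, letters that those factors are known to bind. Each line gives the 150 bases before a RefSeq start on GRCm38.p6, 5′ to 3′ on the strand of the gene, with matches to a searched motif in capitals. The motifs were CAAAGTCCA (HNF4), TGTTTAC (forkhead factors), TTGCGCAA (C/EBP) and TATAAA (the TATA box), on both strands, so that GTAAACA is TGTTTAC and TTTATA is TATAAA read from the other strand. The genes were chosen after their matches were seen, as genes described below whose windows hold the HNF4 or the forkhead letters. Cyp2c70 lies on the minus strand at chr19:40187287-40187436, Cyp3a11 on the minus strand at chr5:145879855-145880004 and Cyp8b1 on the minus strand at chr9:121916306-121916455, and all 3 code for cytochromes P450. Apoh, the gene of β2-glycoprotein I, is shown at chr11:108395147-108395296 on the plus strand. F11, the gene of coagulation factor XI, lies on the minus strand at chr8:45262032-45262181, and Foxa1, itself a forkhead factor, on the minus strand at chr12:57546112-57546261.
Cyp2c70: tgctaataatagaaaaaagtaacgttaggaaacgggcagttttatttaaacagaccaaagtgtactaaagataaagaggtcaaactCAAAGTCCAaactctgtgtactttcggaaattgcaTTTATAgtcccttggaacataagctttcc
Cyp3a11: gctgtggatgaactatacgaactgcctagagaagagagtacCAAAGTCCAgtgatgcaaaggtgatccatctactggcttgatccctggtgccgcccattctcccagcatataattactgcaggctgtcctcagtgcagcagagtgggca
Cyp8b1: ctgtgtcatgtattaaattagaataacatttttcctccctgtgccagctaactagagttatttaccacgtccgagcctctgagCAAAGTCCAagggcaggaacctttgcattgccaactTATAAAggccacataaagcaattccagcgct
Apoh: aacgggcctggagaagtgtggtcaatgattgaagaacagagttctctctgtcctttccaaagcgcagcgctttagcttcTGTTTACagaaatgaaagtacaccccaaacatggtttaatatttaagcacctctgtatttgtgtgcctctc
F11: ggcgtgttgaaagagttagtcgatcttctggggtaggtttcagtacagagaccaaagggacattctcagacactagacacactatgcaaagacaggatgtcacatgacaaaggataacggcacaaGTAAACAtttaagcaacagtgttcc
Foxa1: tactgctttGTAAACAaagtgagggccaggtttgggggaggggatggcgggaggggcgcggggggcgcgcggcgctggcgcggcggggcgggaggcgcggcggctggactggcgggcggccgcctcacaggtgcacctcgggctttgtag
The windows of the 3 P450 genes hold the HNF4 letters, and those of Cyp2c70 and Cyp8b1 also hold the TATA box. The windows of Apoh, F11 and Foxa1 hold the forkhead letters. The windows of Alb, Hnf4a, Hpx, Apoa1, Ahsg, Krt8, Mup3 and Mup7, which are described below, hold none of the motifs. A match describes letters only and is not a binding site.

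All levels below are CPM, the reads of a gene per 1e+06 reads of its library after TMM scaling, given as mean ± SD over 3 libraries, and differences are hepatocyte minus other cell type on the log2 scale. Depth was 18556853 to 19607332 counts in the hepatocyte libraries and 19449491 to 23180421 in the others. After TMM scaling the effective library sizes were 16608048 to 17565983 and 20270267 to 24339266, so 1 CPM stands for fewer reads in the hepatocytes. No pair of replicates looked like 1 library deposited more than once. Fewer cells of a type and less RNA per cell cannot be told apart in bulk libraries.

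The label of the hepatocytes held up against its 4 markers. Alb (chr5:90460897-90476602, GENCODE M21 on GRCm38) reached 26246, 28332 and 26496 CPM in the 3 hepatocyte libraries, against means of 0.0138, 0.308 and 0.0288 CPM in adipocytes, macrophages and myotubes. Its level was 1924000.0 (95% counting interval 345400.0 to 76000000.0) times that of adipocytes and 921800.0 (95% counting interval 255200.0 to 7612000.0) times that of myotubes. In macrophages every count of Alb came from the library of replicate 3, at 0.925 CPM, and the log2 difference was 16.34 ± 0.40 (SE). Trf (chr9:103204001-103230444), the transferrin gene, stood at 17636, 20371 and 17534 CPM and was also read in the other cells, at 136, 155 and 10.9 CPM. Its log2 differences were 7.09 ± 0.25, 6.90 ± 0.25 and 10.73 ± 0.29 in the same order. Apoh (chr11:108343354-108414396) had 295, 319 and 296 CPM against 0.0708, 0.104 and 0.266 CPM. Hnf4a (chr2:163506808-163572910), the nuclear receptor at the centre of the hepatocyte network, had 625, 607 and 634 CPM and no count in any of the 9 other libraries. That is at least 14770.0-fold, 14180.0-fold and 14150.0-fold over the floor of 3 counts in adipocytes, macrophages and myotubes, where the floor is 3 counts over the 3 libraries of a cell type. Such floors and intervals cover counting error only. No hepatocyte library overlapped any other library in the 4 markers, as the plot of the markers by library shows.

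**Figure D1:**
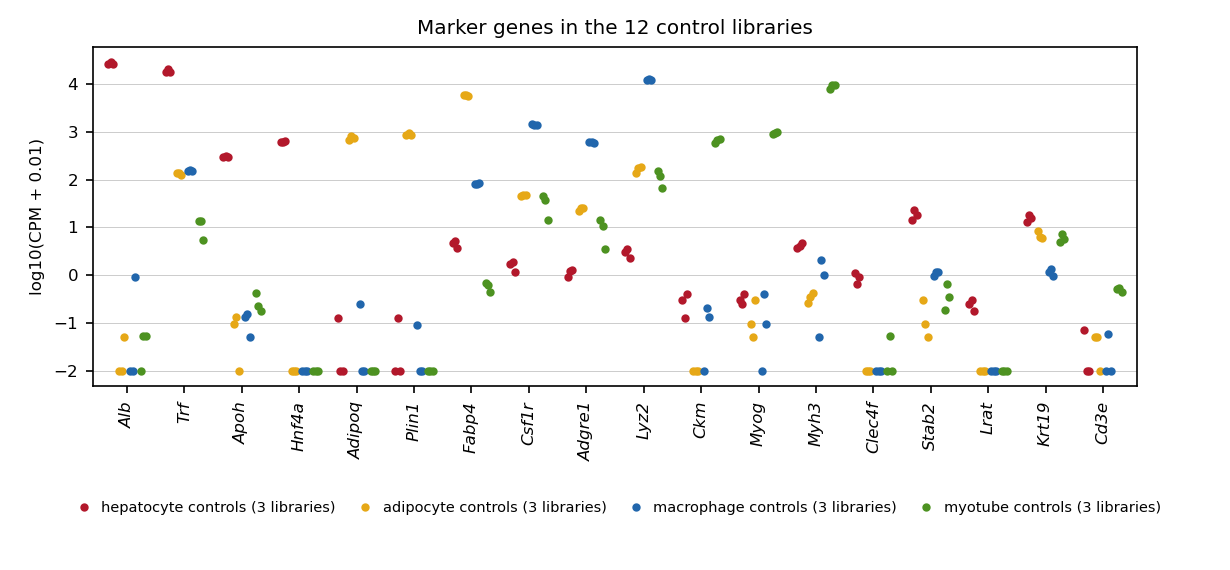
Level of marker genes in each of the 12 control libraries, on a log10 scale of CPM with a small constant added so that 0 can be drawn. Points stand for libraries and colours for cell types. The genes are, from the left, the 4 hepatocyte markers, then markers of adipocytes, macrophages and myotubes, then of other cells of the liver, and in Alb, Trf, Apoh and Hnf4a the 3 hepatocyte points lie above all 9 others.

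Markers of the other cells that a perfused liver could hold ranged from 0 to over 100 CPM in hepatocytes. The 5 Kupffer cell markers summed to 7.89 CPM in hepatocytes (range 7.22 to 8.49), with the defining Clec4f at 0.884 and Timd4 at 0.137 CPM, both too low to test. Marco and Vsig4, at 2.16 and 1.40 CPM, were called higher than in each other cell type by the rule given below, and Cd5l had 3.31 CPM against 227 in macrophages. The 6 liver endothelial markers summed to 68.6 CPM (65.3 to 73.1), with Pecam1 at 19.9, Stab2 at 18.4 and Kdr at 14.7 CPM, and Stab2 was called higher than in each. Among the 6 stellate cell markers, which summed to 30.7 CPM, Reln had 11.9, Dcn 11.4, Col3a1 5.77 and the defining Lrat 0.237 CPM. Of the 6 bile duct markers, which summed to 243 CPM, Spp1 had 163 CPM against 6650.2 in macrophages, Sox9 had 63.7 and Krt19 15.6 CPM, whereas Epcam had 0.254 and Cftr 0.0602 CPM. Of the 4 lymphocyte markers Cd79a, Ms4a1 and Nkg7 were at 0. Of the 3 erythroid markers Hbb-bs was at 0 and Hba-a1 at 0.0201 CPM, while Alas2, the erythroid enzyme of haem synthesis, had 1.50 CPM against 0.0141, 0.0140 and 0.0295 and was called higher. The part of such cells in the results was not tested. Adipocyte markers summed to 7.65 CPM against 7814 CPM in adipocytes. The 5 myotube markers summed to 23.2 CPM against 20373 CPM in myotubes, and Acta1 made up 17.5 CPM of that. The 6 macrophage markers summed to 97.4 CPM (85.3 to 107), of which Cd68 held 90.8 and Csf1r 1.60 CPM.

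A gene was called in a comparison when the adjusted p of edgeR's quasi-likelihood test was below 0.05 and the fitted difference was more than 4-fold. Of 14951 genes tested, 1403 were higher (9.38%) and 2692 lower (18.0%) in hepatocytes than in adipocytes. Against macrophages 1967 were higher (13.2%) and 2627 lower (17.6%), and against myotubes 1831 were higher (12.2%) and 3369 lower (22.5%). The 3 comparisons share the hepatocyte libraries and are not independent. In all 3 together, 869 genes (5.81%) were higher and 1505 (10.1%) were lower in hepatocytes, and it is these that "called higher" and "called lower" mean from here on.

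The genes called higher were wide in level, and 263 of the 869 exceeded 100 CPM in hepatocytes, as did 2114 of all 14951 tested genes. Of the 869, 520 stayed under 1 CPM in every other cell type, out of 602 such genes among all tested. For 116 no count was seen in the 9 other libraries. Genes without a count elsewhere could pass the filter on low counts through the hepatocytes alone, and those under 1 CPM elsewhere mostly so, which means that the filter itself favours their call. All 3 hepatocyte libraries lay above all 9 others in each of the 869, which calls of this size nearly fix, and did so in 3479 of all tested genes (23.3%). Protein-coding genes made up 795 of the 869 (91.5%, against 92.8% of all tested genes), and 36 were lincRNAs. Of the 1505 genes called lower, 1218 had less than 1 CPM in hepatocytes, out of 3232 among all tested. In 1479 of the 1505 (98.3%) the hepatocyte libraries lay below all others without overlap, against 3501 of all tested genes (23.4%). The plot of hepatocyte level against the highest other cell type shows both groups away from the diagonal, at opposite corners.

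**Figure D2:**
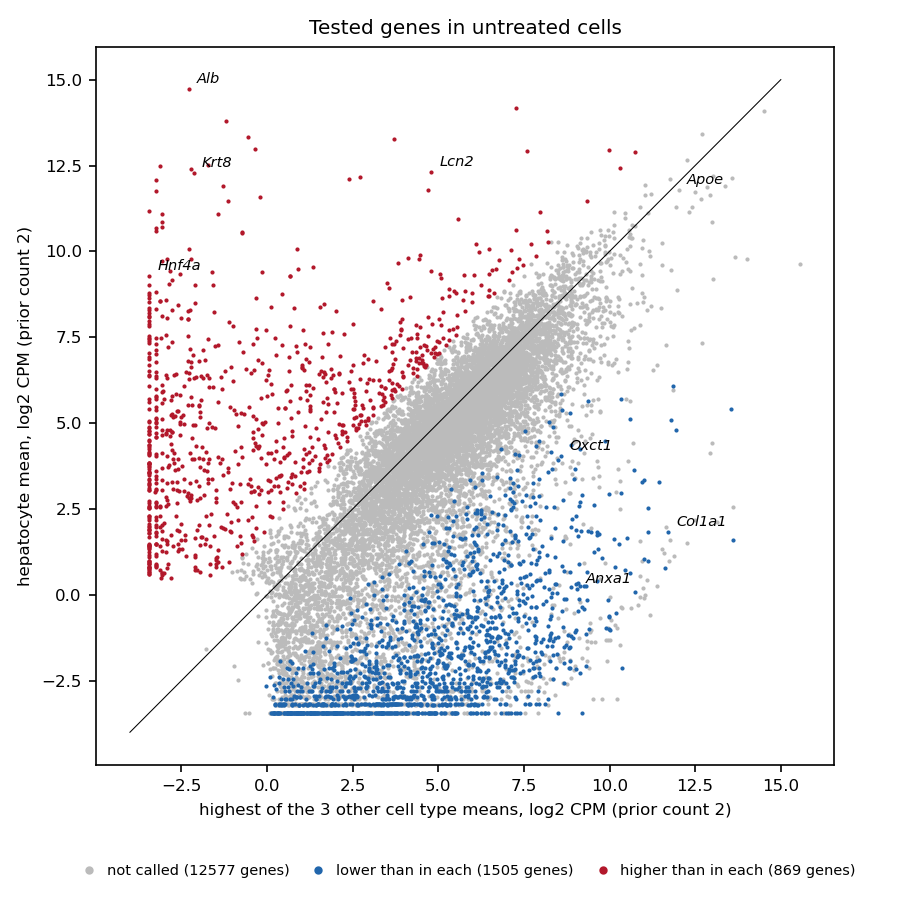
Highest mean log2 CPM among adipocytes, macrophages and myotubes (x axis) against the mean log2 CPM in hepatocytes (y axis), with 1 point for each of the 14951 tested genes and a line where both are equal. The 869 genes called higher lie above the line and the 1505 called lower lie below it, and the prior count of 2 sets the lowest values at the edges.

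Plasma proteins stood furthest out. The 10 genes with the widest gap above the next cell type on the log2 scale were Alb, Fgb, Serpina1b, Serpina1a, Hpx, Apoa1, Serpina1c, Krt8, Mup7 and Mup3. Only Krt8, a keratin of simple epithelia, codes for no secreted protein among these. Fgb, a chain of the clotting protein fibrinogen, had 5668, 5647 and 5726 CPM and no count in adipocytes, at least 134900.0-fold. Against macrophages, with 2 counts in all, its ratio was 194300.0 (95% counting interval 53790.0 to 1604000.0). Hpx, which binds free haem, had 13736, 15101 and 13710.5 CPM against 0.351, 0.145 and 0.0601 CPM. Its log2 differences were 15.28 ± 0.22, 16.51 ± 0.23 and 17.75 ± 0.25. Apoa1, the main protein of HDL, was at 5408, 5395 and 5342 CPM against 0.126, 0.0700 and 0 CPM. Serpina1a, Serpina1b and Serpina1c, and likewise Mup3 and Mup7, belong to families of nearly identical copies, so how their reads were divided among the copies is uncertain.

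**Figure D3:**
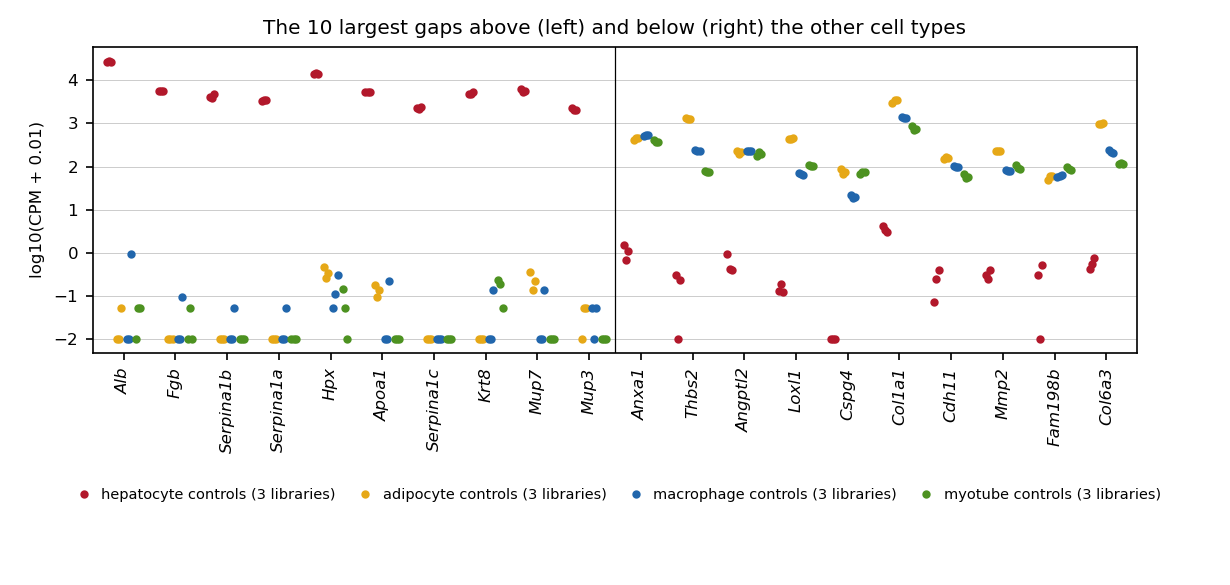
Level in each of the 12 control libraries, on a log10 scale of CPM with a small constant added so that 0 can be drawn, for the 10 genes with the widest gap above (left) and the 10 with the widest gap below (right) the other cell types. Points stand for libraries and colours for cell types. The hepatocyte points lie above all others from Alb to Mup3 and below all others from Anxa1 to Col6a3.

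Measured per kilobase of exon, so that genes can be compared with each other, the highest protein-coding genes in hepatocytes were Alb at 11539 ± 486 and mt-Co1, a mitochondrial subunit of cytochrome c oxidase, at 11181 ± 624 CPM per kb. Next came Hpx at 9461 ± 531, then Mup7, a major urinary protein, at 5622 ± 429, and Trf at 5576 ± 485 CPM per kb. Sprr1a, known as a cornified envelope gene of squamous epithelia, took the sixth place, at 5472 ± 580.1 CPM per kb. Its libraries had 4315, 3998 and 4918 CPM against 1.57, 0.0420 and 5.24 CPM in adipocytes, macrophages and myotubes, and its log2 differences were 11.45 ± 0.24 to adipocytes and 9.71 ± 0.22 to myotubes. Macrophages had 3 counts in all, and the ratio to them was 100800.0 (95% counting interval 34470.0 to 488500.0). Hp, Ahsg, mt-Co2 and Eef1a1 completed the list of 10. Differences between neighbours such as Mup7, Trf and Sprr1a were smaller than their SD. The 117 listed plasma protein genes together took 15.4% ± 0.46 of hepatocyte counts, against 1.80% ± 0.043 in adipocytes, 1.28% ± 0.012 in macrophages and 0.228% ± 0.027 in myotubes. The 100 highest genes took 31.4% ± 0.48 of counts in hepatocytes against 29.2%, 26.4% and 27.0%. The 10 highest took 11.8% ± 0.34, below 12.9% ± 0.32 in adipocytes and beside 11.6% and 9.37%, and the single highest gene 2.40%, against 5.00% in adipocytes. The 37 mitochondrially encoded genes took 3.96% ± 0.28, beside 7.71%, 3.67% and 7.37%.

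Among 38 carriers and protease inhibitors of plasma, 32 were called higher, none lower and 4 neither, and 2 were too low to test (all tested genes: 5.81% higher). The shares over all tested genes, 5.81% higher and 10.1% lower, stand beside every list below. The median over the 36 tested of the smallest in size of the 3 log2 differences (the smallest difference, below) was 12.3, or 11.1 with empty groups set to the floor, and it was -0.01 over all tested genes. Ahsg, or fetuin-A, an inhibitor of calcification, had 10285 ± 312 CPM against 0.616, 0.0280 and 0.0145. Gc, the vitamin D binding protein, had 8120.3 ± 306 CPM, and Cp, the copper protein ceruloplasmin, 7751 ± 531 CPM against 193, 4.34 and 14.0. Ttr, which carries thyroxine and retinol binding protein, had 429 ± 21.5 CPM and no count elsewhere. The 4 members that were not called had less than 4-fold more in hepatocytes than in adipocytes. Serpina3n had 1351 ± 178 CPM against 578 in adipocytes, and Rbp4, the carrier of retinol, 1235 ± 119 against 363. Lrg1 and Agt, the precursor of angiotensin, had 525 ± 28.1 against 561 ± 36.1 and 125 ± 5.47 against 129 ± 9.62 CPM.

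Of 30 genes of coagulation and fibrinolysis, 23 were called higher and 1 lower (median smallest difference 6.93). The 1 lower is 3.33% of the list, against 10.1% of all tested genes. The fibrinogen chains Fga and Fgg had 3824 ± 39.2 and 1870.2 ± 84.0 CPM, and prothrombin, F2, 805 ± 89.2 CPM against 0, 0.0140 and 14.2. Kng1, the precursor of bradykinin, had 1079 ± 36.6 CPM against 1.75, 0.203 and 0. Factor XI, factor XII and protein C (F11, F12 and Proc) stood at 68.3 ± 7.95, 319 ± 17.4 and 117 ± 4.80 CPM with 1 count or none per library elsewhere. Plau, urokinase, was called lower, at 1.36 ± 0.403 CPM against 33.5, 107 and 169.6. F3, tissue factor, had 47.9 ± 3.63 against 146 in adipocytes. F8, which in liver is known as a product of endothelium, had 1.53 ± 0.239 CPM.

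Of 26 complement genes 14 were called higher, 4 lower, near the share of all tested genes (10.1%), and 8 neither (median smallest difference 2.54). C3, the component on which all pathways converge, had 4719, 6154 and 5823 CPM against 1260.4, 9.66 and 0.927, so adipocytes came second, and its call was lost with scaling by library totals alone. Cfb, a protease of the alternative pathway, had 1075 ± 31.6 CPM, and the late components C8a and C8b 17.0 ± 1.07 and 85.0 ± 1.44 CPM with no count elsewhere. Mbl2, a lectin that starts a pathway of its own, had 139 ± 11.6 CPM. The 4 called lower were the chains of C1q (C1qa, C1qb and C1qc) and properdin, Cfp, all known products of macrophages. C1qb had 2.09 ± 0.621 CPM against 45.9, 883 and 38.9. The summed macrophage markers were 306 CPM in adipocytes, 16580 in macrophages and 196 in myotubes, beside 97.4 in hepatocytes, and their part in these 4 differences was not tested. C4b was not called, with 983 ± 104 CPM in hepatocytes and 1110.5 ± 17.0 in adipocytes, and Cfd, or adipsin, was an adipocyte gene with 0.0401 ± 0.0695 CPM in hepatocytes.

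Of 23 genes of lipoproteins, 15 were called higher and 1 lower (median smallest difference 7.07). The 1 lower is 4.35% of the list, against 10.1% of all tested genes. Apob, the scaffold of VLDL, had 2198, 3673 and 3602 CPM, with replicate 1 below the other 2, against 0.0425, 0.267 and 0.927. Apoc3 and Apoa4 had 441 ± 74.3 and 388 ± 97.8 CPM. Apoe was not called and had 3527 ± 165 CPM in hepatocytes and 4171 ± 94.5 in macrophages. Pltp, which transfers phospholipids between particles, was called lower, at 1.85 ± 0.743 CPM against 166, 148 and 11.3. Mttp, which loads lipid onto apolipoprotein B, had 269 ± 12.7 CPM, and myotubes had 67.5. The counts for these and the other lists are drawn side by side in the plot of lists.

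**Figure D4:**
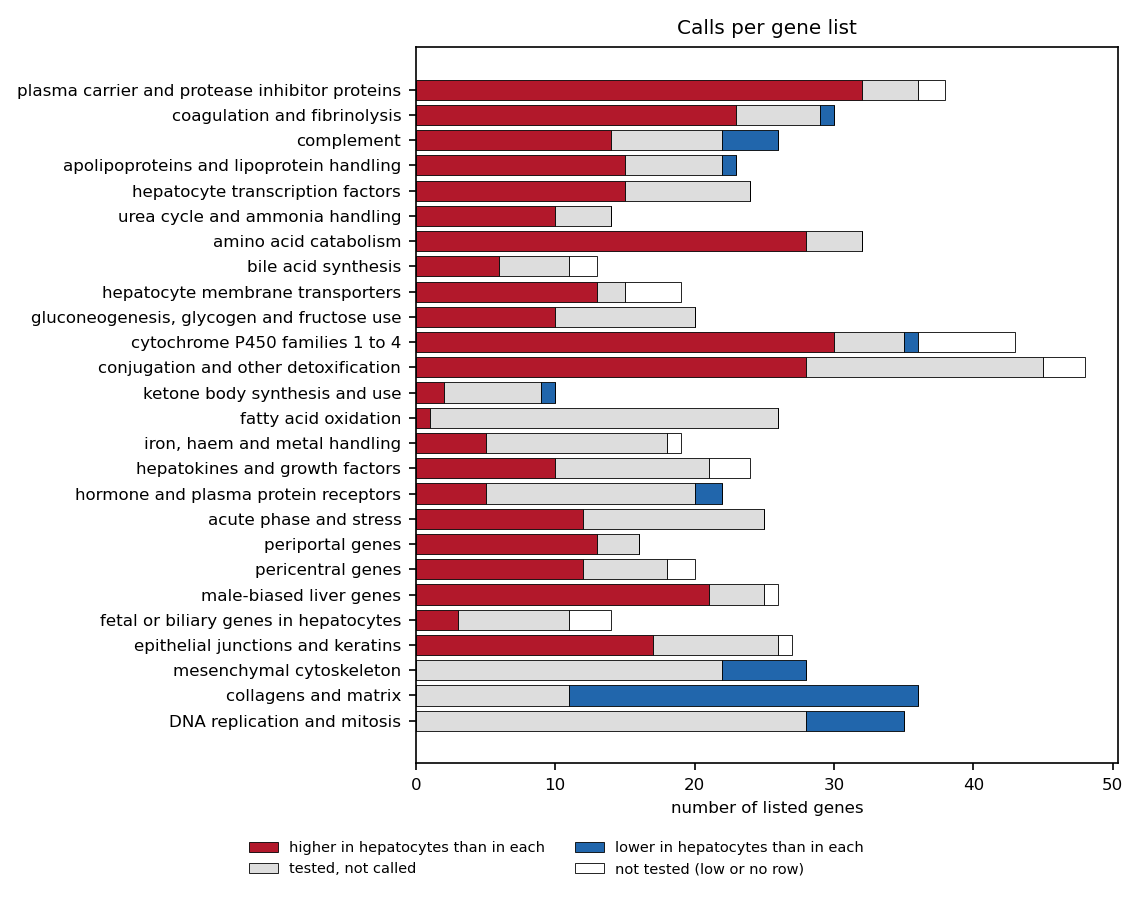
Number of listed genes called higher, called lower, not called and not tested in hepatocytes against each of the 3 other cell types, with 1 bar per list, the marker lists of cell types left out, and the x axis in genes. Of the lists drawn, amino acid catabolism (28 of 32) and plasma carriers (32 of 38) have the largest shares called higher, fatty acid oxidation has 1 of 26, and collagens and matrix have 25 of 36 called lower.

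The position and promoters of the called genes were examined for features that the choice of libraries did not use. Of the 795 protein-coding genes called higher, 238 (29.9%) had a called gene as direct neighbour among 21803 protein-coding genes in genome order, against 6.87% of all of these genes. There were 27 runs of 3 or more. The longest was a run of 9 Mup genes, Mup7 to Mup22, at chr4:60066469-60821463. Others were the 5 Serpina1 genes with Serpina11 on chromosome 12, Alb with Afp and Afm on chromosome 5, Apoa1, Apoc3, Apoa4 and Apoa5 on chromosome 9, and Fgg, Fga and Fgb at chr3:83007724-83049863. Many of these runs are tandem copies of 1 gene, so their members are not independent.

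RefSeq promoters, from 250 bases before the start to 50 after it, were matched for 590 of the 795 genes called higher, for 1036 of the 1417 protein-coding genes called lower and for 10843 of 13868 tested. TATAAA was found in 19.0% of promoters of the genes called higher, in 13.6% of those called lower and in 9.55% of all tested. CAAAGTCCA, the HNF4 motif, was found in 2.88% of promoters called higher and 0.563% of all. Shares of TGTTTAC were 5.25% and 3.16%, whereas TTGCGCAA was equally rare in both (0.339% and 0.332%). The promoters of genes called higher were also poorer in CpG, with a median observed to expected ratio of 0.328 against 0.557 in those called lower and 0.733 over all tested, and a median GC content of 54.0% against 58.9% and 60.5%. These shares describe letters and were not tested, and AT-rich motifs and GC content are not independent of each other.

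Of 24 transcription factors known from hepatocytes, 15 were called higher and none lower (median smallest difference 5.74). Hnf4a is given above. The forkhead factors Foxa1, Foxa2 and Foxa3 had 32.3 ± 0.417, 34.9 ± 1.58 and 67.9 ± 2.82 CPM. Onecut2, a homeodomain factor of liver and bile duct, had 69.6 ± 16.7 CPM, and Creb3l3, a membrane-bound factor that drives hepcidin and lipid genes, 101 ± 14.2 CPM. Nuclear receptors for bile acids (Nr1h4), drugs (Nr1i2 and Nr1i3) and phospholipids (Nr5a2) were called higher too, at 32.0 ± 1.13, 35.4 ± 1.89, 6.25 ± 0.831 and 63.6 ± 2.57 CPM. Of the 9 others, several were also read in another cell type. Cebpa, required in both liver and fat, had 92.0 ± 11.8 CPM against 378 in adipocytes and 295 in macrophages. Ppara, which governs fatty acid oxidation, had 26.7 ± 6.31 CPM against 21.1 in adipocytes. Prox1, a regulator of hepatoblasts that myotubes also expressed, had 121 ± 14.9 against 45.4 CPM.

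Most enzymes of nitrogen handling were called higher. Of 14 urea cycle and ammonia genes 10 were called higher (median smallest difference 4.69), and of 32 genes of amino acid catabolism 28 were (6.91), with none lower in either list. Cps1, which commits ammonia to the urea cycle in mitochondria, had 628, 783 and 679 CPM against 0.0142, 0.0441 and 0.0574. The next enzyme, Otc, had 14.0 ± 0.642 CPM and no count elsewhere, and Ass1 had 461 ± 19.1 CPM against 17.9, 29.5 and 54.8. Asl, which follows, passed against adipocytes and myotubes but had 108 ± 3.42 against 35.3 CPM in macrophages. Glul, glutamine synthetase, was highest in adipocytes (677 ± 48.4 CPM) and stood at 139 ± 2.16 CPM in hepatocytes. Tat, which opens tyrosine breakdown, had 121 ± 5.57 CPM and no count elsewhere, and Gldc, of the glycine cleavage system, 192 ± 18.2 CPM. Mat1a, the adult liver enzyme that makes S-adenosylmethionine, had 103 ± 9.89 CPM and no count in the other cells. Fah, Gstz1, Gpt and Got1 were not called, and Gstz1 had 88.9 ± 3.58 CPM against 105 ± 22.7 in adipocytes.

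The sugar enzymes were split. Of 20 genes of gluconeogenesis, glycogen and fructose use, 10 were called higher and 10 not (median smallest difference 2.05). Pklr, the liver pyruvate kinase, had 179 ± 9.85 CPM against 0.0142, 0 and 0.0304. G6pc, the phosphatase that releases free glucose, had 13.4 ± 2.31 CPM and Fbp1 60.1, 80.0 and 53.1 CPM. Pck1 was not called, at 81.4 ± 2.34 CPM against 34.1 in adipocytes. Pcx, pyruvate carboxylase, had 203 ± 35.6 CPM against 588 ± 12.6 in adipocytes.

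Many liver enzymes have sister isozymes in other tissues, and the share of the liver form per kilobase of exon shows how far a family is turned to the liver form. The forms of lactate dehydrogenase, 5-aminolevulinate synthase and acetyl-CoA carboxylase that were counted as the liver's (Ldha, Alas1 and Acacb) are not particular to liver, and Acacb is known mainly from muscle and heart. In 12 of 16 families the form counted as the liver's outweighed the others together in hepatocytes, against 6 families in adipocytes and 3 each in macrophages and myotubes. Gjb1, connexin 32, made up 99.5% ± 0.068 of the pair with Gja1, and none of it in the 3 others. Fbp1 (94.5% ± 1.1), Cpt1a (91.6% ± 1.6), Fabp1 (84.6% ± 2.8), Gls2 (79.6% ± 2.1) and Pygl (77.2% ± 2.2) also outweighed their sisters. In the 4 other families it made up less than its sisters. Pklr made up 40.5% ± 4.5 of pyruvate kinase and Mat1a 35.1% ± 3.2 of methionine adenosyltransferase. Acacb made up 36.2% ± 0.48 of acetyl-CoA carboxylase, close to 37.4% ± 0.85 in adipocytes. The glucose transporter was the most uneven: Slc2a2, the liver form, made up 2.80% ± 0.32, with 7.48 ± 1.06 CPM beside 160.0 ± 33.1 CPM of Slc2a1, the general form.

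**Figure D5:**
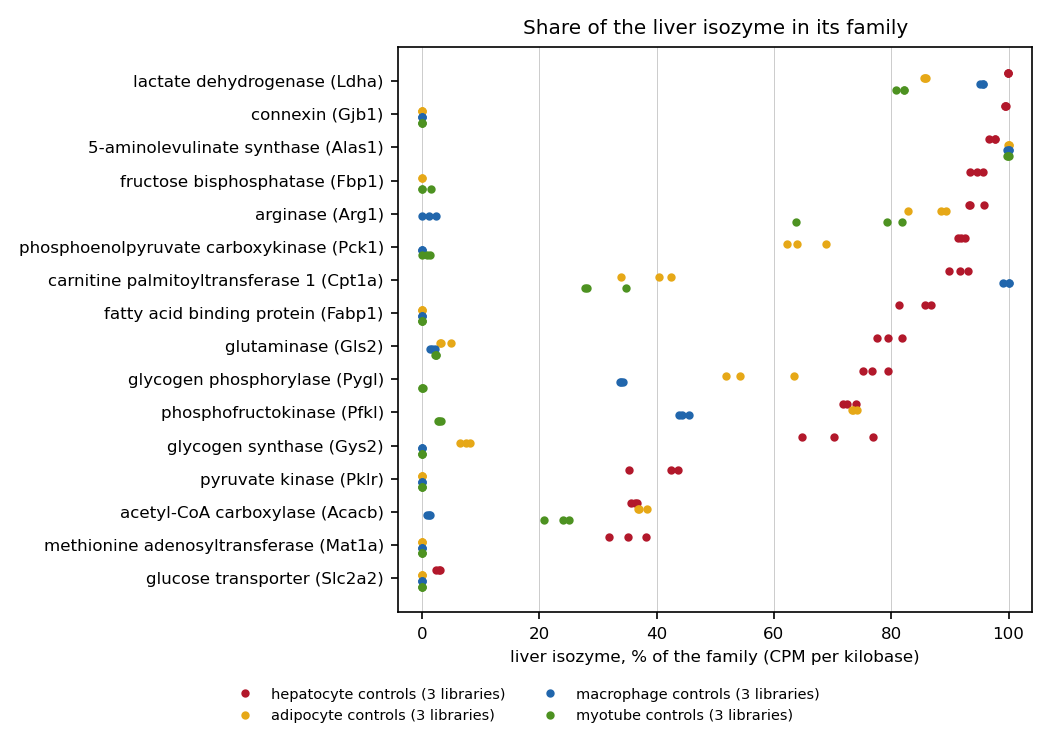
Share of the liver isozyme in its family, in percent of summed CPM per kilobase (x axis), for 16 families in the 4 cell types, with 1 point for each of the 12 control libraries in which the family was read. The hepatocyte points lie furthest right in most families, with 5-aminolevulinate synthase, carnitine palmitoyltransferase 1, phosphofructokinase and acetyl-CoA carboxylase as exceptions, and for the 4 families at the bottom their mean share is 2.80% to 40.5%.

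Of 10 genes of ketone metabolism 2 were called higher and 1 lower, and the 1 lower is no more than the share of all tested genes (10.1%). Oxct1, the transferase that other tissues need to burn ketone bodies, was the gene called lower, with 16.3, 15.1 and 17.8 CPM against 383, 268 and 111. Its log2 differences were -4.54 ± 0.08, -4.03 ± 0.07 and -2.76 ± 0.07 (largest adjusted p = 4.21e-14), and no hepatocyte library overlapped the others. Bdh1, which interconverts acetoacetate and β-hydroxybutyrate, was called higher at 25.8 ± 2.16 CPM against 0.873, 4.46 and 1.60. The 7 not called include the carrier Slc16a1 (128 ± 7.45 CPM against 278, 26.2 and 51.7), and the median smallest difference of the 10 was -0.01. In fatty acid oxidation 1 of 26 genes was called higher, near the share of all tested genes (5.81%), the thioesterase Acot12 at 66.4 ± 7.14 CPM, and the median smallest difference was -0.02. Cpt1a, the gate to mitochondrial oxidation, had 169 ± 10.3 CPM against 69.9, 129 and 44.2.

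Of 13 genes of bile acid synthesis 6 were called higher (all tested genes: 5.81%), 5 were not and 2 were too low to test. The median smallest difference was 3.63. The untested ones include Cyp7a1, the rate-limiting enzyme of the classic pathway, at 0, 0 and 0.0569 CPM in the 3 libraries, which is at the limit of detection. Cyp8b1, which sets the share of cholic acid, had 8.77 ± 2.88 CPM and Cyp27a1, of the alternative pathway, 112 ± 2.22 CPM against 4.75, 9.00 and 1.33. Baat, which joins bile acids to taurine, had 47.9 ± 2.54 CPM and Slc27a5, which activates them, 61.8 ± 5.20 CPM. Of 19 membrane transporters 13 were called higher, 2 were not and 4 were too low to test (median smallest difference 6.73, or 6.69 with empty groups at the floor). Of the export pumps, Abcc2 had 401 ± 27.1, Abcc3 682 ± 69.9 and Abcb4 234 ± 12.7 CPM, while the bile salt pump Abcb11 had 15.5 ± 2.35 and the bile salt uptake carrier Slc10a1 9.75 ± 1.67 CPM. Slco1b2 and Slco1a1, organic anion uptake carriers, had 4.51 ± 0.855 and 2.28 ± 0.270 CPM, and Slc22a7 had 0.435 ± 0.180.

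Of 43 cytochromes P450 of families 1 to 4, 30 were called higher, 1 lower and 5 neither, and 7 were too low to test (median smallest difference 8.13, or 6.88 with empty groups at the floor). Cyp2d26, Cyp2a5 and Cyp3a11, enzymes of drug and steroid oxidation, had 399 ± 9.37, 370.0 ± 39.0 and 313 ± 48.3 CPM, all without a count in the other 9 libraries. Cyp2c70, known for making muricholic acids, had 378 ± 31.0 CPM. Cyp1a2 and Cyp2c29 stood at 19.2 ± 3.52 and 12.7 ± 1.53 CPM. Cyp2e1, which oxidises ethanol, had 82.0 ± 10.4 CPM and was not called because adipocytes had 28.3 ± 10.1. The single P450 called lower was Cyp1b1, an extrahepatic enzyme, with 0.0380 ± 0.0657 CPM against 154, 91.2 and 8.34. That is 2.33% of the list, against 10.1% of all tested genes. Reads of the Cyp2c, Cyp2d and Ugt2b families may be divided among near-identical copies. Of 48 genes of conjugation and detoxification 28 were called higher and none lower (median smallest difference 3.58). Gstp1 and Gstm1, glutathione transferases, had 2282 ± 77.4 and 1578 ± 121 CPM, against 252, 22.4 and 164 and 135, 154 and 37.4. Aldh1a1, which oxidises retinal, had 963 ± 136 CPM, and Ugt2b5, Ugt2b34, Ugt2b35 and Ugt2b36, which attach glucuronic acid, had 178 to 440.3 CPM with no count elsewhere. Aldh2, of acetaldehyde removal, had 419 ± 12.7 CPM against 522, 595 and 123 and was not called.

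Of 19 genes of iron, haem and metal handling 5 were called higher (all tested genes: 5.81%), 13 were not and 1 was too low to test. The median smallest difference was 0.63. Hamp, the hormone hepcidin that closes iron export, had 980.4, 829 and 839 CPM against 0.126, 0.0140 and 0, and Tfr2, which senses transferrin, 117 ± 7.98 CPM. Ferritin chains Fth1 and Ftl1 had 4556 ± 456 and 3799 ± 294 CPM, beside 12231 and 10650.2 in macrophages. The exporter Slc40a1 had 129 ± 5.15 CPM against 139 ± 1.81 in macrophages.

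Of 24 hepatokines and growth factors 10 were called higher (all tested genes: 5.81%), with a median smallest difference of 1.77. Igfbp1, an insulin-repressed binding protein of IGFs, had 1569.5, 1859 and 1535 CPM against 0, 0 and 0.0152. Hgfac, which activates HGF, and Mst1, the ligand of a related receptor, had 109 ± 6.68 and 87.2 ± 3.09 CPM. Igf1, which liver supplies to blood, had 175 ± 10.9 CPM beside 179.9 ± 17.3 in adipocytes and 693 ± 2.10 in macrophages. Fgf21, a fasting hormone of liver, had 0.542, 1.01 and 0.626 CPM in hepatocytes and 19.5 ± 0.721 in myotubes. Of 22 receptors 5 were called higher (all tested genes: 5.81%), 2 lower and 15 neither (median smallest difference 0.71). The 2 lower are no more than the share of all tested genes (10.1%). The asialoglycoprotein receptor chains Asgr1 and Asgr2, which clear aged plasma proteins, had 113 ± 16.2 and 45.7 ± 2.55 CPM, and the glucagon receptor Gcgr 35.8 ± 1.46 CPM. Among FGF receptors Fgfr4 had 65.2 ± 3.03 CPM against 0, 0.0277 and 2.49, Fgfr1 was called lower at 11.8 ± 0.335 against 298, 47.4 and 136, and the co-receptor Klb had 1.85 ± 0.213 against 43.1 in adipocytes. Igf1r, the receptor for IGF1, was called lower at 1.51, 2.45 and 1.37 CPM against 62.6, 53.8 and 139. The insulin receptor Insr had 184 ± 25.9 CPM and 184 ± 2.83 in adipocytes.

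Acute phase genes were read in these untreated cultures. Of 25 genes 12 were called higher and 13 not, with a median smallest difference of 1.76. Lcn2, which withholds iron from bacteria, had 5172, 5097 and 5044 CPM against 27.7, 0.472 and 0. Hp, haptoglobin, whose call was also lost with scaling by library totals alone, had 7621 ± 299 CPM with adipocytes next at 1722, and Orm1 had 1958 ± 96.8 CPM against 48.2, 0.121 and 0.0152. The serum amyloid genes Saa1, Saa2 and Saa3, of which the first 2 are near-identical, had 315 ± 27.9, 188 ± 18.5 and 104 ± 10.7 CPM. Fgl1, a fibrinogen-like secreted protein, had 883 ± 104 CPM, and Cxcl1, a neutrophil attractant, 153 ± 16.8 against 1.71, 0.0578 and 0.558. Steap4, a metalloreductase, was at 652 ± 50.6 CPM in hepatocytes and 634 ± 13.5 in adipocytes. Jun and Fos, early response genes of the list, were not called, with Jun at 116 ± 5.85 against 69.9, 128 and 120.0 and Fos at 13.2 ± 0.899 against 5.36, 47.5 and 6.64 CPM.

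Genes of both ends of the liver lobule were present. Of 16 periportal genes 13 were called higher (median smallest difference 5.54), and of 20 pericentral genes 12 were (4.52, with 2 not tested). Hsd17b13, a periportal lipid droplet protein, had 854 ± 93.1 CPM. Cyp2f2, a periportal P450, had 20.2 ± 0.433 CPM. On the pericentral side Glul and Cyp2e1, given above, were not called, Oat had 27.4 ± 4.67 CPM against 235, 109 and 49.9, and Axin2, a WNT target, 0.217 ± 0.127 CPM against 3.16, 0.670 and 9.19. Genes with higher expression in male liver were called higher in 21 of 26 cases (all tested genes: 5.81%). Their median smallest difference was 8.64, or 6.25 with empty groups at the floor. Mup7 had 6291, 5420.4 and 5711 CPM, and Mup20, or darcin, had 1679 ± 88.8 CPM. Elovl3 had 0.651 ± 0.172 CPM against 10.7 in adipocytes. Of 14 fetal or biliary genes 3 were called higher (all tested genes: 5.81%), Afp and Prom1 among them. The median smallest difference of that list was 0.91. Afp, the fetal counterpart of albumin, had 6.44 ± 0.366 CPM, and H19 and Igf2, abundant in fetal liver, had 5.81 ± 0.390 and 1.30 ± 0.312 CPM while myotubes had 12525 and 2186.

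Epithelial genes were called higher in hepatocytes. Of 27 genes of keratins and junctions 17 were called higher and none lower (median smallest difference 3.96). Krt8 and its partner Krt18 had 4800.3, 4755 and 5367 and 4553, 4260.1 and 5072 CPM, against 0, 0.0420 and 0.148 and 0.0282, 0.0280 and 6.58. E-cadherin, Cdh1, had 332 ± 33.0 CPM against 0.0849, 0.130 and 1.02, and Cldn3, a tight junction protein, 261 ± 2.99 CPM. Gjb2 and Gjb1, the gap junction proteins of liver, had 354 ± 12.1 and 162 ± 12.5 CPM. N-cadherin, Cdh2, which hepatocytes also carry, had 192 ± 14.7 CPM and was higher in myotubes (377). Jup and Tjp1 were not called, with 289.9 and 170.3 CPM in myotubes beside 237 ± 14.9 and 233 ± 43.5.

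Among the lists drawn in the plot of lists, collagens and matrix had the largest share called lower. Of 36 collagens and matrix genes 25 were called lower and none higher (all tested genes: 10.1% lower), with a median smallest difference of -5.16. Col1a1, the main fibrillar collagen, had 4.15, 3.28 and 2.96 CPM in hepatocytes against 3355, 1339.6 and 768, and its log2 differences were -9.92 ± 0.15, -8.60 ± 0.14 and -7.79 ± 0.14. Sparc, a collagen-binding protein, had 28.0 ± 3.33 CPM against 3943, 825 and 2247. Macrophage cultures held matrix transcripts too, and the part of other cells in those cultures was not tested. Not all matrix was low: Fn1, fibronectin, which hepatocytes secrete to plasma, had 2531 ± 592 CPM against 3957, 2236 and 3671, and Col18a1, the source of endostatin, 368 ± 37.4 against 165, 51.2 and 182. The 10 genes with the widest gap below were Anxa1, Thbs2, Angptl2, Loxl1, Cspg4, Col1a1, Cdh11, Mmp2, Fam198b and Col6a3. Anxa1, a phospholipid-binding protein of many cell types, had 1.51, 0.656 and 1.08 CPM against 444, 534 and 385 (log2 differences -8.68 ± 0.15, -8.94 ± 0.15 and -8.47 ± 0.15). Cspg4, a proteoglycan of pericytes and progenitors, had no count in hepatocytes against 76.8, 20.1 and 72.0 CPM.

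The cytoskeleton was less uniform. Of 28 genes common in mesenchymal cells 6 were called lower and none higher (all tested genes: 10.1% lower), and the median smallest difference of the 28 was -0.82. Acta2, smooth muscle actin, had 6.05 ± 0.391 CPM against 451, 754 and 681, Lgals1, galectin-1, 52.4 ± 9.42 against 660.1, 845 and 1304, and S100a4 0.333 ± 0.0886 against 61.7, 308 and 235. Vim, vimentin, was read at 324, 337 and 367 CPM in the hepatocyte libraries and at 1184, 2372 and 1254 elsewhere, and Cald1, which binds actin, at 1564 ± 81.3 against 986, 423 and 539. Of 35 genes of replication and mitosis 7 were called lower and none higher (all tested genes: 10.1% lower), with a median smallest difference of -0.98. Mki67, present only in cycling cells, had 3.38 ± 0.941 CPM against 34.1, 821 and 25.2, so that macrophages held most of it. Ccnd2, a cyclin of G1, had 6.05 ± 1.56 CPM against 551, 94.8 and 511, while the helicase Mcm6 had 73.9 ± 8.86 against 37.7, 149.6 and 14.5.

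The same comparison was made in libraries that the choice above did not use. These were of the same cell types and the same study, so they are not an independent set. The genes tested were the 14951 that passed the filter on low counts in the control libraries, so no other gene could be called. Among all tested genes, 5.81% were called higher and 10.1% lower in the controls. With the 12 libraries exposed to β-hydroxybutyrate in place of the controls, 883 genes were called higher, of which 849 were shared with the controls (97.7% of the control list and 96.1% of the other). Of 1412 called lower 1255 were shared (83.4% and 88.9%). With the 12 butyrate libraries 734 were called higher, and 693 were shared (79.7% and 94.4%). Of 1406 called lower under butyrate 1067 were shared (70.9% and 75.9%). In each of these fits the hepatocytes and the other cells had received the same compound, at 5 mM.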

How the data were processed

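RNA of the 36 libraries was sequenced as paired ends on a BGISEQ-500. The authors deposited estimated counts for each gene, after having quantified transcripts with Salmon 1.2.1 against GENCODE M25 and summed them by gene. The study's methods also describe a scaling of the estimates for transcript length and depth. The deposited columns had no common total and 55.6% of their values above 0 were whole, and whether they carry a length scaling is not settled, which touches the values per kilobase. The table held 54347 genes and 36 columns, each matched to a sample by the number in its description. Names, positions and exon lengths were taken from GENCODE M21, in which 54094 of the IDs were found. Release M25 was not used here.

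The 12 control libraries were grouped by their labels. Estimated counts were rounded, scaled by TMM and fitted with edgeR 4.0.16 in R 4.3.3 with 1 mean per cell type. Each pairwise difference was tested by the quasi-likelihood F test, and p-values were adjusted by Benjamini-Hochberg across the 14951 genes that exceeded 1 CPM in 3 or more of the 12 libraries. The SE of a log2 difference was not estimated directly but taken as its size divided by the square root of F. Mean log2 CPM used a prior count of 2. The script was tested on simulated data before use. Depth, at 18556853 to 23180421 counts per library, limits the lowest genes, where 3 counts over a group were taken as the floor. An exact permutation test of 3 against 3 libraries cannot go below p = 0.1, so no permutation test was used for single genes. Cell types differ in how much of a library a few genes take, which TMM corrects only in part.

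Alternatives were DESeq2 1.42.0, limma-voom (limma 3.58.1), RLE scaling, library totals alone, other filters and fold thresholds, all 36 libraries in 1 model, 2 cell types at a time, the replicate number as a block, and each library left out. Named were the 4 markers, the 10 genes of widest gap in each direction, the 10 highest per kilobase, up to 4 called and 4 other members of each of 37 lists, and the members of 16 isozyme families. Some named genes, families and motifs are not reported here. Other genes in the text were chosen after their values were seen. The members, lists and comparisons were chosen with earlier results of these data known. Promoters are from RefSeq (GRCm38.p6).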

Additional observations from a re-analysis of the deposited data

How the results depend on the processing

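The counts of called genes moved by less than 1.5 times under most alternatives, namely DESeq2, limma-voom, RLE scaling, library totals alone, other filters, all 36 libraries in the model, only 2 cell types and a log2 threshold of 3. In hepatocytes against each of the others, 869 were called higher and 1505 lower. DESeq2 gave 865 and 1526, limma-voom 871 and 1446, library totals alone 815 and 1666, no filter on low counts 1232 and 1721, and a log2 threshold of 3 gave 677 and 1043. A log2 threshold of 1 called 1491 genes higher than in each, 2676 higher than in adipocytes, 3392 higher and 4007 lower than in macrophages, and 3365 higher than in myotubes. Without mitochondrial genes the 100 highest genes took 29.7% of hepatocyte counts. Leaving out 1 library at a time gave 866 to 879 higher and 1476 to 1525 lower than in each, 1392 to 1411 higher and 2667 to 2697 lower than in adipocytes, 1942 to 1986 and 2587 to 2635 for macrophages, and 1821 to 1873 and 3327 to 3370 for myotubes. It left 344 to 349 called genes in the lists, 12 isozyme families and 31.2% to 31.6% for the 100 highest genes.

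Same-numbered libraries of different cell types did not deviate together, with correlations of -0.0446 to 0.0365 between hepatocytes and the others, so the numbers do not pair them, and the replicate block gave 871 higher and 1498 lower. Of 127 named genes called, 109 were called under every alternative and 0 changed direction. Slc2a4 was lost with DESeq2, limma-voom, all 36 libraries and 6 of the left-out libraries. Library totals alone moved the median log2 difference of all tested genes by -0.21, -0.23 and -0.22 against adipocytes, macrophages and myotubes, and C3, Glud1 and Hp were lost. So were 17 genes at a log2 threshold of 3, Oxct1, Bdh1, C3 and Hp among them. Chosen after seeing the data, leaving out adipocytes, macrophages or myotubes as a comparison gave 1249, 1004 or 1121 higher and 1808, 2032 or 1737 lower. Depth limits genes such as Cyp7a1 and Slc22a7, which are near or below 1 CPM.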

Other observations

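The 3 hepatocyte libraries were close to each other, with a median SD of 0.0872 on the log2 scale over 8543 genes, and 9 genes had an SD over 0.5. The genes of this paragraph were chosen after their values were seen. Of the 20 genes with the widest spread, 13 were highest in replicate 2, and all but Ndufa4l2 were lowest in replicate 1. How often either pattern occurs among all 8543 genes was not counted. The widest was Ndufa4l2, a mitochondrial protein, with 23.8, 28.6 and 6.21 CPM in replicates 1, 2 and 3, lowest in replicate 3. Egln3, a prolyl hydroxylase that hypoxia is known to induce, had 26.5, 61.1 and 35.0 CPM in replicates 1, 2 and 3. Slc16a3, which exports lactate, had 20.8, 44.1 and 21.9 CPM, and Adm, the vasodilator adrenomedullin, 16.9, 37.5 and 22.4 CPM. Pfkfb3, which drives glycolysis, had 15.2, 30.8 and 21.6 CPM. Hipk2, a nuclear kinase, was also lowest in replicate 1 but highest in replicate 3, at 113, 222 and 235 CPM. With 3 libraries a single one cannot be tested as standing apart, and the source of the spread was not tested.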
